A study of Mus musculus with 2 samples.

Results

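The locus of the costimulatory receptor genes Cd28, Ctla4 and Icos was taken as 360 neighbouring 1-kb bins of mouse chromosome 1, from 60730001 to 61090000 (mm9). It was examined in a pair of chromatin immunoprecipitation sequencing (ChIP-seq) libraries from mouse Th2 cells, a helper T cell type whose hallmark cytokine is interleukin 4. For the H3KAc library, chromatin was precipitated with an antibody to acetylated histone H3 lysines, a mark of open, active chromatin. For the other library, non-specific polyclonal rabbit IgG was used, which measures the background of the procedure. Both started from CD4+CD62L+ spleen cells of C57BL/6 mice. Stimulation with anti-CD3/CD28 lasted 5 days, in medium with IL-4 (10 ng/ml) and anti-IFN-g (2 µg/ml), and a rest of 3 days came after it. Crosslinking was in 0.4% formaldehyde, and each precipitation took 7 µg of antibody. There was 1 library per antibody, so no difference has a replicate check, no p-value was computed, and every interval compares these 2 libraries and covers counting error only. Activation through CD28 was part of the culture of both libraries. The labels used here do not state the number and age of the animals, and the Th2 identity was not checked against marker genes, because no gene annotation on mm9 was used here.

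The bins were set by position and not by their read counts, though the locus itself was picked with earlier results of these data known. Of the 360 bins, 341 held at least 1 read in either library, out of 2246042 such covered bins in the genome and 170725 on chromosome 1. The gene positions came with the definition of the locus and are approximate, at 60.774 to 60.830 Mb for Cd28, from 60.940 Mb for Ctla4 with no end given, and at 61.035 to 61.057 Mb for Icos, all on the plus strand. In the RefSeq gene table (GRCm38) Cd28 is shorter than the window given for it and Ctla4 starts closer to Icos, so the given starts of Cd28 and Ctla4 may lie too far left. The Cd28 window and the stretch after the given Ctla4 start would then include sequence before the genes. The given positions divided the locus into 6 segments, which were 44 kb upstream of Cd28, the 56-kb Cd28 window, 110 kb between Cd28 and Ctla4, 95 kb from Ctla4 to Icos, the 22-kb Icos window and 33 kb downstream of it. A level below is the number of distinct read positions per kb per 1000000 distinct positions of the library (RPM per kb), and reads means distinct positions unless said otherwise.

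Cd28, Ctla4 and Icos encode related receptors of the immunoglobulin superfamily on T cells. CD28 on the naive T cell binds CD80 and CD86 on the antigen-presenting cell and gives the second signal that a T cell needs, beside its antigen receptor, to divide and make cytokines. CTLA-4 appears after activation, binds the same ligands more tightly and restrains the response, and it is abundant on regulatory T cells. ICOS also appears after activation, binds its own ligand ICOSL and supports helper T cells, including Th2 and follicular helper cells. In the RefSeq gene table (GRCm38) the 3 genes are neighbours in this order among protein-coding genes, with Raph1 before Cd28 and Pard3b after Icos. Long noncoding RNA genes and pseudogenes, among them 2310016D23Rik, are annotated between them.

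Of the 3 genes, Ctla4 was matched in the RefSeq promoter table, which gives 250 bases before to 50 bases after the annotated start. The sequence is shown because the strongest block of acetylation between the Ctla4 and Icos starts (below) cannot be assigned to a promoter by position, and it lets a reader see what a promoter of this locus holds. It lies at chr1:60908775-60909074 on the plus strand of GRCm38.p6. That build differs from the mm9 positions used everywhere else here, so its coordinates cannot be set beside them. Capitals mark motif matches.
Ctla4: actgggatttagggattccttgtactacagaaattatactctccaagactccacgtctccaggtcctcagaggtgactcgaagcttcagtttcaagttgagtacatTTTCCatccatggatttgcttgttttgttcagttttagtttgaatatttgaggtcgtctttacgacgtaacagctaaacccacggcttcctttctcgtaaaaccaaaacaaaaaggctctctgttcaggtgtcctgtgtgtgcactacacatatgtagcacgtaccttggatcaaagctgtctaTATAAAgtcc
Counted from the 5′ end, bases 107 to 111 match the core of NFAT sites (GGAAA, here on the minus strand), bound by the factor that calcineurin activates downstream of the antigen receptor. Bases 291 to 296 match TATAAA, and this match lies after the annotated start and not before it. Searched on both strands, GGAAA occurred in 61.3% and TATAAA in 13.6% of 32851 promoters of the same length. No match was found for AP-1 (TGANTCA), which occurred in 7.81% of promoters. None was found for STAT6 (TTC and GAA with any 4 bases between them), in 6.95%, for GATA factors (AGATAA), in 11.2%, for Runx (TGTGGT), in 16.8%, or for a GC box (GGGCGG), in 35.7%. The Ctla4 promoter had 42% G and C and 8 CpG, against medians of 52.7% and 7 over all these promoters. These are matches of letters and not binding sites.

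The H3KAc library held 19711169 distinct positions from 21845451 reads, and the IgG library 1897666 from 7626703. The locus received 3432 H3KAc and 205 IgG positions. H3KAc thus gave 9.53 and IgG 0.569 reads per kb, and 241 of the 360 bins had no IgG read. Copies of a position were fewer in H3KAc than in IgG, with 1.08 and 3.40 reads per position in the locus. For 0 IgG reads in a 1-kb bin, the exact Poisson interval reaches up to 1.94 RPM.

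Over the whole locus H3KAc was 0.484 RPM per kb (95% interval 0.468 to 0.50) and IgG 0.300 RPM per kb (0.260 to 0.344), a ratio of 1.61 (1.40 to 1.87). The H3KAc level itself was ordinary for the genome. Per covered kb it was 0.511 RPM in the locus, against 0.398 RPM on chromosome 1 and 0.445 RPM over all covered bins. IgG was lower in the locus, at 0.317 RPM per covered kb, against 0.384 RPM on chromosome 1 and 0.445 RPM over all covered bins. Among 3957 other windows of the same length in the genome, each covered in at least 90% of its bins, 2186 held more H3KAc reads than the locus and 3149 held more IgG reads, but only 62 had a higher ratio of H3KAc to IgG. The median of those windows was 3656 H3KAc reads, 338 IgG reads and a ratio of 1.04. Set against the genome, the high ratio of this locus thus went with a low IgG count and a near-median H3KAc count. The windows on either side had similar IgG counts of 203 and 189 reads and fewer H3KAc reads, 2769 and 2438 (below).

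**Figure D1:**
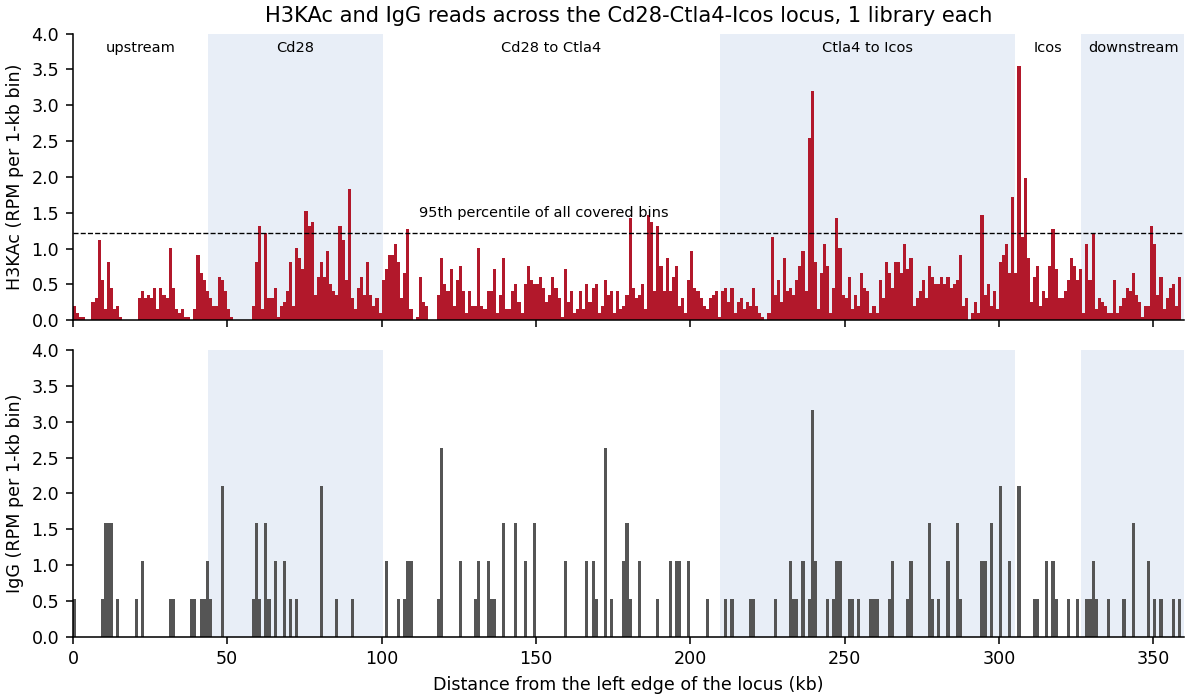
H3KAc (upper) and IgG (lower) in RPM per 1-kb bin across the 360 kb, by distance from the left edge of the locus; shading alternates between the 6 segments, and the dashed line is the 95th percentile of H3KAc over all covered bins of the genome (1.22 RPM). The H3KAc bins above 2 RPM are at 238, 239 and 306 kb, and the bins at 239 and 306 kb also hold 6 and 4 IgG reads.

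The segments that begin at the given starts of the 3 genes did not share 1 level of acetylation. These are averages over the given positions, and those of Cd28 and Ctla4 may include sequence outside the genes. The segment from Ctla4 to Icos is not a gene window, because no end was given for Ctla4. The Icos window was the highest segment, with 0.816 RPM per kb in H3KAc (0.734 to 0.906) and 0.311 RPM per kb in IgG (0.166 to 0.533), from 354 and 13 reads. The segment from Ctla4 to Icos had 0.550 RPM per kb in H3KAc (0.516 to 0.584) and 0.344 RPM per kb in IgG (0.264 to 0.441). The Cd28 window had 0.519 RPM per kb in H3KAc (0.478 to 0.563) and 0.245 RPM per kb in IgG (0.160 to 0.359). The H3KAc intervals of these last 2 segments overlapped, while that of Icos lay above both.

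The segments without a named gene were lower. Between Cd28 and Ctla4, the H3KAc level was 0.445 and the IgG level 0.311 RPM per kb. Downstream of Icos the values were 0.406 and 0.256 RPM per kb. Upstream of Cd28 the H3KAc level was the lowest of the locus, at 0.285 RPM per kb (0.250 to 0.323), and did not stand apart from IgG at 0.276 RPM per kb (0.175 to 0.413).

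Set against the rest of the locus, the Icos window held 1.77 times as many H3KAc reads per kb (1.58 to 1.97), and 1.04 times as many IgG reads (0.544 to 1.82). The segment from Ctla4 to Icos held 1.19 times as many H3KAc reads as the rest (1.11 to 1.29) but also 1.21 times as many IgG reads (0.883 to 1.64). At this IgG depth its excess cannot be told apart from that of the background. For the Cd28 window the H3KAc factor was 1.09 (0.993 to 1.19) and the IgG factor 0.789 (0.501 to 1.19). Upstream of Cd28 the H3KAc factor was 0.557 (0.487 to 0.634) and the IgG factor 0.908 (0.561 to 1.41).

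The Cd28 and Icos windows and the segment from Ctla4 to Icos were also compared with each other. The Icos window exceeded the Cd28 window by 1.57 times in H3KAc reads per kb (1.37 to 1.80). The IgG factor was 1.27 (0.601 to 2.57). The interval does not cover the doubt about the Cd28 positions. A 9-kb run with 8 H3KAc reads lies inside the Cd28 window and lowers its average. The average of the Icos window is raised by the peak at its left end, where single bins held 70 and 39 of its 354 H3KAc reads. The median bin held 13.5 H3KAc reads in the Icos window, 7.5 in the Cd28 window and 9 from Ctla4 to Icos. Icos exceeded the segment from Ctla4 to Icos by 1.49 times (1.31 to 1.68), with an IgG factor of 0.905 (0.457 to 1.66). That segment over Cd28 gave 1.06 (0.955 to 1.18) in H3KAc, an interval that includes 1. Cd28 over the stretch upstream of it gave 1.82 (1.57 to 2.13) in H3KAc and 0.888 (0.487 to 1.63) in IgG.

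Measured against IgG, the Cd28 and Icos windows, the segment from Ctla4 to Icos and the stretch between Cd28 and Ctla4 all stood above 1. So did the 360-kb windows on either side of the locus (below). The H3KAc over IgG ratio was 2.62 (1.51 to 4.97) in the Icos window and 2.12 (1.43 to 3.28) in the Cd28 window. It was 1.60 (1.24 to 2.10) from Ctla4 to Icos, 1.43 (1.11 to 1.87) between Cd28 and Ctla4, 1.59 (0.960 to 2.82) downstream of Icos and 1.03 (0.673 to 1.66) upstream of Cd28. The intervals of the Icos window, the Cd28 window and the segment from Ctla4 to Icos overlapped. Their ratios cannot be placed in an order at this IgG depth. The intervals of the 2 outer segments include 1.

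**Figure D2:**
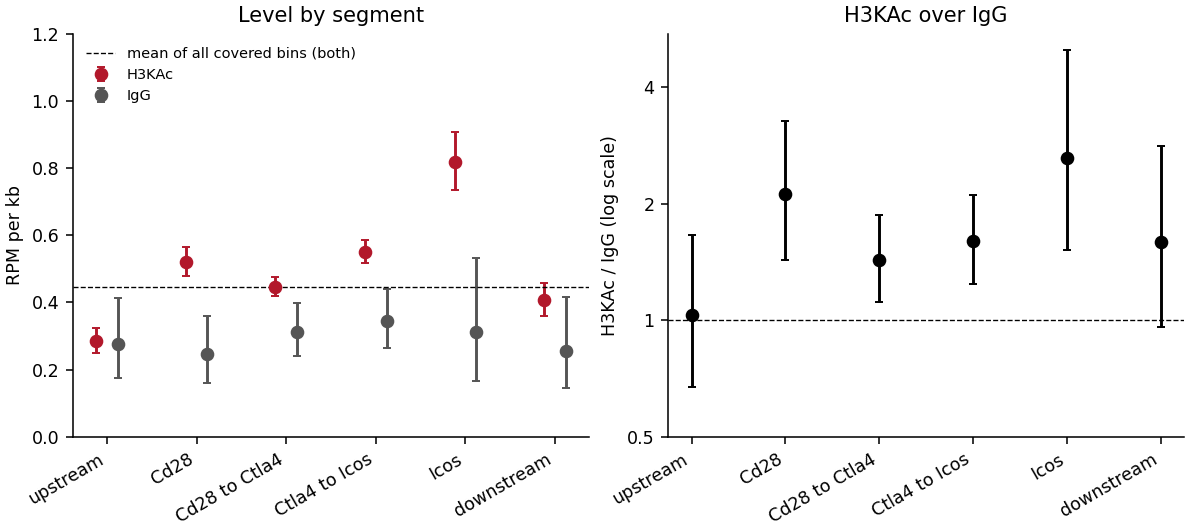
Left, H3KAc and IgG in RPM per kb for the 6 segments in genomic order, with exact Poisson 95% intervals and the mean of all covered bins (0.445 RPM, the same in both libraries) as a dashed line; right, the H3KAc over IgG ratio with its exact 95% interval on a log scale. Icos has the highest H3KAc level (0.816 RPM per kb), while IgG stays between 0.245 and 0.344 RPM per kb in all segments.

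Single bins were first set against IgG in the same bin, where a bin with at least 5 reads was called enriched if the lower bound of its ratio exceeded 2. Of 264 bins of the locus with enough reads, 0 were called, and the rule called 0.0836% of the 1409765 bins tested in the genome. With a lower bound above 1 the count was also 0, against 0.651% in the genome. No bin of the locus was under-represented in H3KAc (upper bound below 0.5), against 0.629% in the genome. A bin with 0 IgG reads needs 79 H3KAc reads to pass the first rule, and the highest bin of the locus held 70. No bin of the locus could therefore pass that rule at this depth. A lower bound above 1 needs fewer reads, but the bins with 70, 63 and 50 H3KAc reads held 4, 6 and 1 IgG reads. The closest to a lower bound of 1 was the Icos bin from 61038001 to 61039000, with 39 H3KAc reads, 0 IgG reads and a lower bound of 0.970.

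High bins were therefore defined by H3KAc alone, as those at or above the 95th percentile of all covered bins, which was 24 reads or 1.22 RPM. There were 22 in the locus, 6.45% of its covered bins, against 5.57% of all covered bins, a share near the background. Of these bins 7 lay in the Cd28 window, 5 between Cd28 and Ctla4, 5 from Ctla4 to Icos, 3 in the Icos window, 2 downstream and 0 upstream of Cd28. Just inside the threshold, 2 bins held 24 reads, and just outside it 2 bins held 23. Only 3 bins, or 0.880%, reached the 99th percentile of 46 reads, against 1.02% in the genome. Bins below the genome median of 6 reads made up 30.8% of the covered bins of the locus, against 47.2% in the genome, and 2 of these 105 bins lay in the Icos window. The locus thus had fewer bins of low H3KAc than the genome and about the genome's share of high ones, as the plot of bin counts shows.

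**Figure D3:**
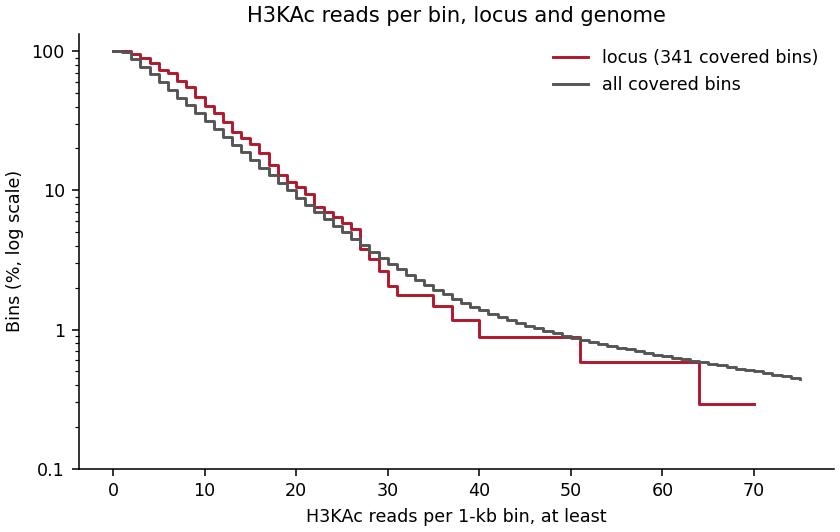
Share of covered 1-kb bins (log scale) that hold at least the number of H3KAc reads on the horizontal axis, for the 341 covered bins of the locus and for all covered bins. The locus lies above the genome up to about 26 reads and mostly below it beyond; its highest bin holds 70 reads.

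The highest bins of the locus lay at Icos and in the segment from Ctla4 to Icos. They are named by their H3KAc reads, so their H3KAc levels are a description. The bin from 61036001 to 61037000, at the left end of the Icos window, had the most, with 70 H3KAc reads or 3.55 RPM (2.77 to 4.49) and 4 IgG reads or 2.11 RPM. Its ratio was 1.69 (0.630 to 6.36). The next bin, from 60969001 to 60970000, held 63 H3KAc and 6 IgG reads, the most IgG reads of any bin in the locus, and its ratio was 1.01 (0.439 to 2.86). The bin to its left held 50 H3KAc reads and 1 IgG read. The bins from 61036001 and 60969001 were thus high in both libraries, while other high H3KAc bins held few or no IgG reads. The other bins with the most IgG reads lay between Cd28 and Ctla4, from 60849001 to 60850000 with 17 H3KAc and 5 IgG reads and from 60902001 to 60903000 with 11 and 5, where H3KAc was not high.

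In the Cd28 window the highest bin ran from 60819001 to 60820000, with 36 H3KAc reads or 1.83 RPM (1.28 to 2.53) and 0 IgG reads. It was followed by the bin from 60805001 to 60806000, with 30 H3KAc reads and 0 IgG reads. The other bins among the 10 highest were 61038001 to 61039000 and 61034001 to 61035000 on either side of the Icos start, with 39 and 34 H3KAc reads, 60916001 to 60917000 with 29, 61024001 to 61025000 with 29 and 60910001 to 60911000 with 28. Of these 5 bins, 3 had 0 IgG reads, that from 61024001 had 2 and that from 60910001 had 1. The 10 bins held 11.9% of the H3KAc reads and 6.83% of the IgG reads of the locus, and in H3KAc 200 reads on the plus and 208 on the minus strand. In the other windows of the same length the 10 highest bins held a median of 11.8% of H3KAc reads, so the locus was about as concentrated as they were.

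High bins with at most 1 bin between them formed 14 blocks, of which 9 were 1 kb wide, and together they held 22.3% of the H3KAc reads of the locus. The blocks were picked by their H3KAc reads, which raises their ratios to IgG, so these ratios are given as a description without an interval. The widest block spanned 5 kb across the start of Icos, from 61034001 to 61039000. It held 179 H3KAc and 4 IgG reads, 1.82 RPM per kb (1.56 to 2.10) and 0.422 RPM per kb (0.115 to 1.08), a ratio of 4.31. The 2-kb block from 60968001 to 60970000, the highest between the starts of Ctla4 and Icos, had 2.87 RPM per kb in H3KAc (2.36 to 3.45) and 1.84 RPM per kb in IgG (0.742 to 3.8), a ratio of 1.55. The narrower block had the higher level in both libraries, with overlapping IgG intervals.

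At Cd28, the leading block spanned 3 kb from 60805001 to 60808000, with 83 H3KAc reads, 1.40 RPM per kb (1.12 to 1.74), and 0 IgG reads. Further blocks of the Cd28 window lay at 60816001 to 60817000 and 60819001 to 60820000, with 26 and 36 H3KAc reads and 0 IgG reads each, and at 60790001 to 60793000, with 53 and 4. Between Cd28 and Ctla4 the leading block ran over 4 kb from 60916001 to 60920000. It held 90 H3KAc reads and 1 IgG read, 1.14 RPM per kb (0.918 to 1.40) and 0.132 RPM per kb (0.00334 to 0.734), a ratio of 8.67. This block ends before the given start of Ctla4 and lies outside the Cd28 and Icos windows. Downstream of Icos the leading block was the bin from 61079001 to 61080000, with 26 H3KAc and 0 IgG reads, and within the Icos window, apart from the block at its start, the bin from 61047001 to 61048000 held 25 and 2.

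Acetylation around the given starts was high only at Icos. For Cd28 and Ctla4 these values may not describe the true starts, which may lie further right (above). No lack of acetylation at the true starts of Cd28 and Ctla4 follows from them. In the 10 kb centred on the Icos start there were 264 H3KAc and 10 IgG reads, 1.34 RPM per kb (1.18 to 1.51) and 0.527 RPM per kb, with 3 high bins. Around the given start of Cd28 there were 90 and 10 reads, 0.457 RPM per kb (0.367 to 0.561) in H3KAc and 0.527 RPM per kb in IgG, and around that of Ctla4 there were 58 and 3, or 0.294 RPM per kb (0.223 to 0.380) and 0.158 RPM per kb. Neither of these held a high bin. The highest H3KAc pileups of the Cd28 window and of the segment from Ctla4 to Icos lay 45.6 kb and 29.2 kb to the right of the given starts. With the doubt about these starts, the distances do not place the pileups within or outside the genes, and no block of these segments was assigned to a promoter. At Icos the distance was 1.26 kb.

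Reads extended to the fragment length of 200 bp gave a summit in each segment. That of the Icos window was at 61036261, with 29 H3KAc reads overlapping and 1 IgG read, and a width of 463 bp at 0.5 of its height. That between the Ctla4 and Icos starts was at 60969227, with 23 and 0 reads and a width of 635 bp. That of the Cd28 window was at 60819573, with 23 and 0 reads and a width of 238 bp. Within 0.5 kb of the summit there were 67 H3KAc and 4 IgG reads at Icos and 38 and 0 at Cd28. Between the Ctla4 and Icos starts there were 70 and 6, or 3.55 and 3.16 RPM per kb. In the other segments the summits were at 60738381 upstream of Cd28 (12 and 0 reads), 60838809 between Cd28 and Ctla4 (20 and 2) and 61060038 downstream of Icos (12 and 0). The summit between the Ctla4 and Icos starts lay 149.7 kb from that of Cd28 and 67.0 kb from that of Icos.

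The summits of the Icos window, the segment from Ctla4 to Icos and the Cd28 window had different surroundings. At Icos, the 250-bp windows on either side of the summit held 33 and 24 H3KAc reads, and another rise 1000 to 1750 bp to the left held 43 reads over 750 bp. The 750 bp between them held 0 H3KAc and 0 IgG reads. A further rise 2000 to 2250 bp to the right held 22 reads. The Ctla4-to-Icos summit had 21 and 24 H3KAc reads in its adjoining windows and a shoulder of 22 reads 750 to 1000 bp to the left, with no empty window between them. The Cd28 summit had 16 and 12 reads in its adjoining windows, and windows of 13 and 14 reads began 2000 and 3250 bp to its left. From 750 to 2000 bp to its right, 1250 bp held no H3KAc and no IgG read. IgG gives little information on these gaps, since 38 of the 40 windows around the Cd28 summit, 33 around the Ctla4-to-Icos summit and 37 around the Icos summit held no IgG read.

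Away from the summits, H3KAc was 0.778 RPM per kb at 2 to 5 kb to the left of the Icos summit and 0.981 RPM per kb at the same distance to the right, where the signal extends into the Icos window. For the segment from Ctla4 to Icos these levels were 0.727 and 0.676 RPM per kb, and for Cd28 0.778 and 0.474 RPM per kb. Of these 6 levels, 5 had intervals above the mean of all covered bins of 0.445 RPM. That to the right of the Cd28 summit (0.315 to 0.684) included it. The summits were picked by their H3KAc reads, and flanks of summits elsewhere were not compared, so this is a description. IgG to the left and right was 0.351 and 0 RPM per kb at Icos, and 0.527 and 0 RPM per kb from Ctla4 to Icos. At Cd28 it was 0.176 and 0 RPM per kb.

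**Figure D4:**
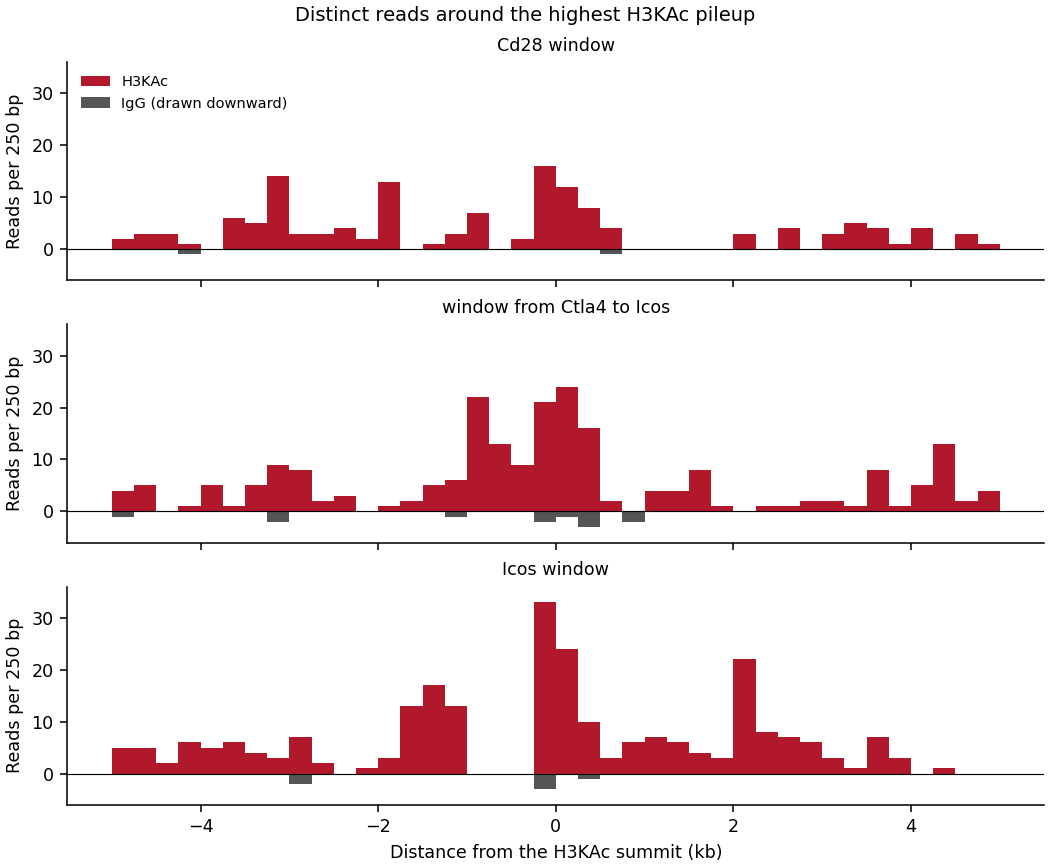
H3KAc reads (upward) and IgG reads (downward) per 250 bp within 5 kb of the highest H3KAc pileup in the Cd28 window, the segment from Ctla4 to Icos and the Icos window. The Icos profile has 3 rises with a 750-bp stretch of 0 reads left of the summit, the profile between Ctla4 and Icos has 1 broad double rise, and the highest windows hold 16 reads at Cd28, 24 from Ctla4 to Icos and 33 at Icos.

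When IgG was taken over the 11 bins centred on each bin, which gives more background reads but dilutes a narrow IgG peak, 17 of 333 tested bins (5.11%) were called enriched, against 1.59% in the genome. Of these, 7 lay in the Cd28 window, 3 between Cd28 and Ctla4, 3 from Ctla4 to Icos, 2 at Icos, 1 downstream and 1 upstream. The bins named next were picked by their H3KAc reads, which raises their ratios, so these are given as a description without an interval. By this measure the Icos bin from 61036001 had a ratio of 10.6, the Cd28 bin from 60819001 one of 19.1 and that from 60805001 one of 5.30. The bin from 60969001 had one of 5.13, against 1.01 with IgG in the same bin. The Cd28 bin from 60819001 rested on 2 IgG reads over 11 kb and that from 61036001 on 7, so the larger ratio of Cd28 came with a lower regional IgG and not with a higher H3KAc level. Of the 17 bins, 12 had 0 IgG reads of their own. With every deposited read counted, copies included, and IgG in the same bin, 17 of 270 tested bins (6.30%) were called, against 2.64% in the genome, and 12 of them were among the 17 called with IgG over 11 bins.

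High H3KAc bins of the locus held less IgG on average than such bins over the genome. The 22 high bins had 1.66 RPM per kb in H3KAc and 0.647 RPM per kb in IgG, from 718 and 27 reads. The 125177 high bins of the genome, those of the locus included, had 1.99 and 1.68 RPM per kb. In the locus, 10 of the 22 high bins had 0 IgG reads, against 14.4% of the high bins of the genome. IgG was nevertheless higher in the high bins of the locus than in its other 319 covered bins, by 2.20 times (1.41 to 3.31), and the same factor over all covered bins was 4.51 (4.49 to 4.52). The comparison of high bins was added once their values were known and is a description, and the higher H3KAc level of the high bins of the genome moves with it.

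Low stretches were found mainly to the left. The 3 longest runs of bins below the genome median were 60780001 to 60789000 inside the Cd28 window, with 8 H3KAc reads and 1 IgG read over 9 kb, 60743001 to 60751000 with 8 and 2 over 8 kb, and 60730001 to 60737000 with 13 and 1 over 7 kb. Of their bins, 6, 4 and 2 held no read in either library, out of 19 such bins in the whole locus. IgG reads in these runs were few as well, but too few to show a low IgG level. The IgG intervals reached up to 0.326, 0.476 and 0.419 RPM per kb, and each included the locus level of 0.300 RPM per kb. The H3KAc over IgG ratios of the runs, 0.770 (0.103 to 34.2), 0.385 (0.0769 to 3.72) and 1.25 (0.188 to 53.2), show no direction.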

How the data were processed

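The authors deposited the alignments of 1 H3KAc and 1 IgG library from mouse Th2 cells, with the position and strand of each 35-base read. Reads were aligned with Bowtie to mm9, per the submitters' processing notes; its version, its filters and what was done with reads that align in several places are not stated. Reads that share a 5′ end and strand were counted as 1, because copies carried no molecular identifier, and moved 100 bp along their strand into 1-kb bins. Levels were divided by each library's distinct positions. Ratios have exact conditional binomial (Clopper-Pearson) and levels exact Poisson 95% intervals, which cover counting error only. Each segment, block and summit was named by rule: the 10 bins with the most H3KAc reads, the 3 with the most IgG, the 6 blocks with the most H3KAc reads and the leading one of each segment, the 3 longest low runs and the summit of each segment. The members and rules were chosen with earlier results of these data known. Promoter sequences are from RefSeq (GRCm38.p6), and no coordinate was converted between builds. The software was Python 3.11.15 with scipy 1.17.1, numpy 2.4.6, matplotlib 3.10.9 and pandas 2.3.3.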

Additional observations from a re-analysis of the deposited data

How the results depend on the processing

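Of 53 recomputed values, 44 stayed within their counting interval or within 1.5 times of the count, but part of these could not move. No bin of the locus held more than 10 IgG reads, so leaving out such bins changed nothing. With 0 bins called at a lower bound above 2, a lower bound above 4 had to call 0 as well. Bins of 500 bp and reads of 1 strand give fewer reads per bin, so their 0 enriched bins were fixed too. The locus ratio of 1.61 was 1.87 with all reads as deposited, where copies of a position entered as if independent, and between 1.52 and 1.71 with reads not moved, reads of 1 strand or IgG scaled by background bins. The 0 enriched bins became 17 with all reads (the rule then called 2.64% of the bins tested in the genome) and 17 with IgG over 11 bins, and 12 of the bins were shared, 70.6% of each set. The 22 high bins were 3 at the 99th percentile (0.880% of covered bins, against 1.02% in the genome), 39 at the 90th (11.4% against 10.0%) and 38 with 500-bp bins (6.10% against 5.68%). With the percentile of chromosome 1 they were 32, or 9.38% against 5.43% of that chromosome. Divided by the same factor in IgG, the H3KAc factor over the rest of the locus turned to 0.988 for the segment from Ctla4 to Icos and moved to 1.38 for Cd28 and to 0.984 downstream of Icos; that of Icos was 1.70. The IgG depth of 0.569 reads per kb limits every ratio of a single bin. No paired analysis was possible because each group had 1 library.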

Other observations

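The windows of 360 kb on either side of the locus gave the following values. That on the left (60370001 to 60730000) held 2769 H3KAc and 203 IgG reads, a ratio of 1.31 (1.14 to 1.52), with 10 high bins. That on the right (61090001 to 61450000) held 2438 and 189 reads, a ratio of 1.24 (1.07 to 1.45), with 3 high bins. The locus itself, with 3432 and 205 reads and 22 high bins, therefore had more H3KAc reads than either neighbour at nearly the same IgG. The highest bin of the left window held 125 H3KAc reads and that of the right 28, against 70 in the locus.

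Across the 360 bins, H3KAc reads of the plus and the minus strand had a Pearson r of 0.744 and a Spearman rho of 0.623, and H3KAc and IgG reads had 0.349 and 0.308. These describe bins of the same libraries that share the alignability of their sequence. The bin from 60761001 to 60762000, the one bin upstream of Cd28 called with IgG over 11 bins, held 18 H3KAc reads on the plus strand and 2 on the minus strand, while the bin with the most reads, at Icos, held 35 on each.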
